A study of Salmo trutta with 8 samples.

Results

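A custom salmonid oligonucleotide array held 21754 probes. Of these, 91 gave a lower signal in every replicate in the channel labelled salmon luteinizing hormone (sLh) than in the control channel. They were chosen among the 17437 probes that were well above background in the control channel on at least 4 arrays and had a ratio in all 3 replicates. A member is a probe whose sLh over control ratio was below 1 over 1.8 in each of the 3 replicates, that is, a log2 ratio below -0.85. The members make up 0.522% of the probes past the filter, and the mirrored rule, over 1.8-fold higher in every replicate, held for 82 probes (0.47%). The members were chosen by their log2 ratios in all 3 replicates, so these ratios are described here and not tested.

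Intact preovulatory follicles of brown trout (Salmo trutta), whose oocytes had matured but not yet been ovulated, were incubated with or without sLh, and the RNA of both portions of a female was labelled with different dyes and put on the same array. According to the labels, the follicles came from 4 females, each measured on a pair of arrays with exchanged dyes, and were kept for 18 h at 15 °C. They give no dose of sLh, and the design text speaks of brook trout where the sample labels give brown trout. Female 1 is replicate 1 and female 2 is replicate 2. The values of females 3 and 4 lay closer together than those of dye-swapped arrays of 1 female, so their mean was taken as replicate 3 and n = 3.

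Luteinizing hormone is the pituitary gonadotropin whose surge sets off ovulation. Its receptor sits on the theca and granulosa cells that surround the oocyte and raises cyclic AMP in them, after which steroid synthesis shifts, the follicle wall is remodelled and the oocyte is expelled. In fish as in mammals this response includes transcripts that decline as well as transcripts that are induced.

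Each ratio is the processed signal of the channel labelled sLh over that of the channel labelled control. The direction rests on the dye labels. The list of 788 probes that the authors deposited has the opposite sign in 788 of 788 probes and does not state its direction, so that "lower" means lower in the channel labelled sLh throughout. Which direction holds could not be settled here, and the members may instead be probes that are higher with sLh. Follicles hold several cell types, and fewer cells of a type and less RNA per cell cannot be told apart in these samples. The probes carry only systematic names, none of which (0 of 21754) occurs among the identifiers of the 61581 genes of the brown trout gene table used here, so no member is given a gene name, no sequence is shown, and the tissue label was not checked against marker genes. Of the members, 72 have a systematic name beginning with Omy and 19 (20.9%) one beginning with Ssa. Over all probes past the filter, 14.1% of the names begin with Ssa, and among the 82 higher probes 6.10% do.

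The size of the difference varied widely among the members. In 74 members the sLh channel was above background on at least 1 array of every replicate. In the other 17 at least 1 replicate had no such array, so that the size of its ratio, and with it of the mean, is not measured. Among the 74, the mean log2 ratio over the 3 replicates ran from -3.61 to -0.98 with a median of -1.90, so that 73 were over 2-fold lower in the mean, 31 over 4-fold, 9 over 8-fold and 0 over 16-fold. The ratios of processed signals as computed gave a median of -2.003 and a lowest mean of -4.79 over all 91, with 90 over 2-fold, 46 over 4-fold, 16 over 8-fold and 2 over 16-fold. Both of these last 2, and 7 of the 16, are among the 17. Over 2-fold in every replicate held for 60 members, and over 4-fold in every replicate for 11, of which 5 are among the 17. With the values of these 17 as computed, the median log2 ratio of the members was -1.59 in replicate 1 (-4.42 to -0.86), -1.27 in replicate 2 (-4.80 to -0.86) and -2.74 in replicate 3 (-7.43 to -0.88). The medians over all probes past the filter were 0.03, -0.05 and 0.10 in the same order. By the median, replicate 3 thus held the largest differences and replicate 2 the smallest.

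The background behind the rule differed between the replicates in the same way. Taken alone, the threshold was passed downwards by 1284 probes (7.36%) in replicate 1, by 961 (5.51%) in replicate 2 and by 2379 (13.6%) in replicate 3. limma found 92 probes (0.528%) that were over 1.8-fold lower in the mean with an unadjusted p under 0.01, and 66 members are among them, which follows from the same ratios. With all signs allowed, 250 probes passed 1.8-fold in every replicate but in mixed directions, beside the 91 lower and the 82 higher probes. Mixed directions pool several patterns of sign, whereas all lower and all higher are a single pattern each. The mixed count is thus comparable with the others only per pattern of sign, and the patterns were not counted apart. Over all probes past the filter, limma called 0 at an adjusted p of 0.05 (lowest adjusted p = 0.323), with 913 at an unadjusted p under 0.05, and the methods' t-test called 0 with 694.

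Few members were even across replicates, with the ratios of all 91 taken as computed. These include the 17 with a replicate whose ratio size is not measured. The spread among the other 74 was not counted apart. The SD over the 3 replicates had a median of 0.957 on the log2 scale (0.0976 to 2.92), against 0.436 over all probes past the filter and 0.595 over the 82 higher probes. The highest and lowest replicate lay within 0.5 of each other in 9 members, 0.5 to 2 apart in 39 and over 2 apart in 43. In 37 of these 43 replicate 3 was lowest, in 4 it was replicate 1 and in 2 replicate 2. Over all members the lowest ratio came from replicate 3 in 61 (67.0%), from replicate 1 in 17 and from replicate 2 in 13, and these are also their ratios of largest size. Over all probes past the filter, the lowest ratio came from replicate 3 in 34.0% and the ratio of largest size in 47.2%. Among the 82 higher probes the ratio of largest size came from replicate 2 in 37 (45.1%), from replicate 1 in 23 and from replicate 3 in 22 (26.8%), and over all probes past the filter it came from replicate 2 in 24.2%. These shares were not tested, because the ratios chose both sets.

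Among the 46 members over 4-fold lower in the mean, the evenest was CUST_5768_PI425320672, the member with the 21st lowest mean. Its control signal was 3950 and 5360 in female 1, 11019 and 12595 in female 2, and 3362, 4892, 3368 and 4369 in females 3 and 4 (processed intensity, sLh in Cy5 first for each female). Its sLh signal was 794 and 676, then 1574 and 1571, then 628, 601, 610 and 533. The highest sLh signal was below the lowest control signal, so that the channels did not overlap over the 8 arrays. The log2 ratio was -2.65, -2.91 and -2.74 in the 3 replicates, a mean of -2.76 ± 0.13 (SD, n = 3) or 6.79-fold lower. Both channels of this probe were above background on all 8 arrays, and female 2 had the highest processed signals in both. Relative to the median of the probes past the filter in each channel and array (log2), female 2 was not highest in both. The control level was then 4.37, 4.52 and 2.77 in the 3 replicates, and the sLh level 1.78, 1.63 and 0.02.

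The member with the lowest mean, CUST_1134_PI425320672, was of another kind. Its control signal was 84.9 and 238 in female 1, 65.8 and 221 in female 2, and 769, 1071, 823 and 953 in females 3 and 4. Its sLh signal lay between 4.50 and 27.2 and was not well above background on any array, while the control channel was above it on 7. The processed signals gave a log2 ratio of -4.79 ± 2.38 (SD, n = 3), from -2.80 in female 1 to -7.43 in replicate 3. With an sLh signal not above background, such a ratio does not measure the size of the difference. With the lowest signal well above background on each array in place of the sLh level, the control level was 8.44-fold higher. This was computed from loess-normalized and quantile-scaled signals and is open to dye bias where swaps are unequal. The lowest such signal is the smallest stand-in for an undetected one, so the value is not a strict lower limit.

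Besides this probe, 3 members were not above background in the sLh channel on any of the 8 arrays, so that for 4 members in all no replicate measures the size. They have the 2nd, 20th and 29th lowest means. Their control levels, set against the lowest signal in the same way, were 6.83-fold, 1.71-fold and 1.27-fold higher. The control channel of these 3 was above background on 7, 6 and 5 arrays. On the remaining arrays neither channel was, so no fold is measured there. The values of 1.71-fold and 1.27-fold lie under the 1.8-fold of the rule. The passing of the 20th and 29th, and their ranks, thus rest on sLh signals not above background. By replicate, the sLh channel was above background on no array of female 1 in 14 members, of female 2 in 7 and of females 3 and 4 in 6, which is 15.4%, 7.69% and 6.59% of the members. Over all probes past the filter the shares were 6.97%, 0.442% and 0.465%, so that female 1 was the dimmest for all probes too. Together these are the 17 members named above, 10 of which are among the 20 with the lowest means. The filter used the control channel only, so a dim sLh signal did not keep a probe out. It asked for 4 arrays. On all 8 the control channel was above background in 72 members (79.1%), against 65.8% of the probes past the filter. The member with the 20th lowest mean was also 1 of 2 whose ratio was not below 0 on all 8 arrays, at 0.34 on the array of female 1 that carried sLh in Cy3 and -2.12 on that with sLh in Cy5.

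In 35 members both channels were above background on all 8 arrays. They are 38.5% of the members, against 55.2% of the probes past the filter. Their mean log2 ratio had a median of -1.74 and ran from -3.19 to -1.17, and 24 of them were lowest in replicate 3. Their median log2 ratio was -1.49 in replicate 1, -1.18 in replicate 2 and -2.66 in replicate 3, so that the order of the replicates was that of all members. Of the 11 members over 4-fold lower in every replicate, 3 belong to this set.

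Of these 3, CUST_5768_PI425320672 is described above, and the others have the 10th and the 13th lowest means. The member with the 13th lowest mean had log2 ratios of -3.80, -2.42 and -3.17, with a control signal of 1292 to 5223 and an sLh signal of 104 to 506 over the arrays. Its channels did not overlap. The member with the 10th lowest mean had log2 ratios of -2.09, -2.14 and -5.28, alike in females 1 and 2 and far lower in the third replicate.

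The brightest members did not follow 1 pattern. No member was saturated in either channel on any array, and only 380 of the 17437 probes past the filter were. The highest mean control signal of a member was 65866. That member had log2 ratios of -1.12 in replicate 1, -1.02 in replicate 2 and -4.62 in replicate 3. The next in brightness, at 42372, had -1.43, -1.18 and -3.90. The third, at 35691, was even across the replicates, with -1.70, -1.64 and -1.34. The fourth, at 27678, had -1.08, -1.18 and -2.15, and the fifth, at 27162, had -3.09, -1.02 and -4.14. All 5 were above background in both channels on all 8 arrays.

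The member with the widest spread over the replicates, an SD of 2.92 of the computed ratios, differed between females in both channels. Its control signal was 275 and 344 in female 1, 1499 and 1753 in female 2, and 22209 to 27831 in females 3 and 4. Its sLh signal was 18.1 and 33.2, then 933 and 828, then 204 to 269. The control channel was lowest in female 1 and highest in females 3 and 4, and the sLh channel was highest in female 2. The log2 ratios were -0.88 in replicate 2 and -6.73 in replicate 3. That computed for replicate 1, -3.65, does not measure the size, since the sLh channel was not above background on either array of female 1. On each array the sLh signal was below the control signal, although the control signal of female 1 was below the sLh signal of female 2.

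Over the members as a whole, the level in each channel was set relative to the median of the probes past the filter in that channel and array (log2). The median control level was 0.47 in replicate 1, 0.88 in replicate 2 and 1.00 in replicate 3, and the median sLh level was -1.78, -0.83 and -1.94. The mean control level lay above the median of the tested probes in 51 of 91 members, with quartiles of -0.83 and 2.31. Over all probes past the filter it did so in 8621 of 17437, with quartiles of -1.97 and 2.40. The members were thus spread over dim and bright probes, but their lower quartile was higher. The mean control level of the 82 higher probes had a median of -1.12 and their mean sLh level one of 0.99, close to the members with the channels exchanged (0.68 and -1.51). Since the control level is the denominator of the ratio and also entered the filter, neither value is independent of the rule.

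The members varied between the females in both channels. The range of the control level over the 3 replicates had a median of 1.20 among the members, against 0.55 over all probes past the filter, and that of the sLh level had a median of 1.41 against 0.59. The sLh level was the more variable of the 2 in 56 members (61.5%), near the 53.5% of all probes past the filter. The control level was highest in replicate 3 in 55 members (60.4%), against 32.2% of those probes. In 65 of 91 members (71.4%) the ratio was lowest in the replicate with the highest control level, which also held for 65.7% of the probes past the filter.

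A pair of members can follow each other over all arrays. Of the 4095 pairs of members, 2 pairs stayed within 0.3 on the log2 scale in their ratios on each of the 8 arrays. The pair with the 9th and 14th lowest means had log2 ratios of -1.79, -2.65 and -5.13, and of -1.58, -2.62 and -5.05. Their control levels also differed by at most 0.29 on any array. The pair with the 37th and 39th lowest means had -1.06, -1.27 and -4.36, and -0.99, -1.30 and -4.34, with control levels at most 0.24 apart. Whether the probes of a pair target 1 transcript cannot be said from their names.

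On every array the median member was lower in the channel labelled sLh, in either dye orientation. The rule, set on means over these same arrays, favours this. The median log2 ratio of the members was -1.65 and -1.83 on the arrays of female 1, -1.29 and -1.45 on those of female 2, -2.52 and -2.97 for female 3, and -2.67 and -3.04 for female 4, with sLh in Cy5 first. Past the threshold were 76 and 78, 76 and 88, 84 and 90, and 85 and 89 members. The shares over all probes past the filter were not counted array by array. All 8 arrays were past it in 47 members, 7 in 29, 6 in 12 and 5 in 3. The background for 8 arrays is 47 of the 17347 probes with a ratio on each of them (0.271%), these same members. Below 0 on all 8 arrays were 89 members, which the rule itself favours, and the share over all probes past the filter was not counted.

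The arrays with sLh in Cy3 gave the lower ratios within each of the 4 labelled females. The median of the members' differences, sLh in Cy3 minus sLh in Cy5, was -0.51, -0.27, -0.47 and -0.44 in females 1 to 4. In the mean, 66 of 91 members were lower with sLh in Cy3, against 9150 of the 17437 probes past the filter and 71 of the 82 higher probes. The higher probes were shifted the same way, by -0.60, -0.34, -0.46 and -0.56, so that they were nearer to 0 where the members were farther from it. Over all probes past the filter the shift was -0.09, -0.03, -0.04 and -0.04. Each female has 1 array of each orientation, and its mean balances them. Requiring both orientations of each replicate to pass left 49 of the 91 members.

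In both arrays of female 1 the channel in Cy3 was dim. Where it held sLh, it was above background in 35 members, against 77 to 84 on the other arrays, and in 44.4% of all spots, against 72.2% to 83.9%. Without this array the rule held for 113 probes, of which 76 are members. On the other array of female 1 the Cy3 channel held control, and 74 members were above background in it, against 86 to 91 in the control channel of the other arrays, and 51.9% of all spots, against 68.3% to 83.4%.

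The arrays labelled female 3 and female 4 gave nearly the same values and may hold the same RNA, which the files used here do not settle. Over all probes past the filter their log2 ratios had a Pearson r of 0.989 across probes, which are not independent replicates, against -0.03 to 0.15 for the other pairs of females. Members differed between them by a median of 0.0756 and at most 0.57 on the log2 scale, and all 91 passed the threshold in each. The rule, set on the mean of these nearly equal values, favours such passing. Female 3 alone as the third replicate gave 92 probes and female 4 alone 91.

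The number of members that passed was lower from differently processed signals. In this setting the spot signal, the background correction and the normalization changed together. After normexp correction of the median spot signals (offset 50) and loess within each array, 45 of the 91 members were past 1.8-fold in every replicate, and no other probe was. All 91 kept a log2 ratio below 0 in each replicate, but the same spots were read on which the rule had set the sign. This is therefore no separate support for the direction. An offset added to both channels makes the ratios of dim probes smaller in size. The median of the members' mean log2 ratio was -1.33 in place of -2.003. By replicate the median became -1.13, -0.98 and -1.95. The 46 that no longer passed had a median control signal of 385, against 2889 in the 45 that did, and 15 of them were over 500, against 41 of the 45. They were above the threshold most often in female 2, in 35, then in female 1, in 28, and in the third replicate in 11.

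CUST_5768_PI425320672 had a mean log2 ratio of -2.62 ± 0.13 (SD, n = 3) after this correction. From the processed signals it was -2.76 ± 0.13, so that the mean moved by over 1 of its small SD. CUST_1134_PI425320672 had -1.87 ± 1.28 (SD, n = 3), less than before in size. The bright member with the widest spread, whose control signal averaged 13002, had a ratio of -0.75 in female 2 and no longer passed. Across 6 settings taken singly, namely normexp and loess, both dye orientations, a 2-fold threshold, the array of female 1 with the dim sLh channel left out, further background flags applied and flagged spots kept, 34 members passed under each. Of these, 4 have a replicate with the sLh channel above background on no array. The mean log2 ratios of the other 30 ran from -3.61 to -1.47 with a median of -2.55. As these were sifted by the same ratios, larger values among them are no result.

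At the edge of the rule the values on both sides were nearly alike. The 5 members nearest to the threshold had as their highest ratio -0.855, -0.856, -0.861, -0.865 and -0.869. The 5 probes nearest to it outside had -0.839, -0.835, -0.833, -0.831 and -0.825. One of the latter had log2 ratios of -2.33, -0.83 and -4.53, a mean lower than that of most members.

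The list of probes that the authors deposited holds 70 of the 91 members, and for all 70 its mean is above 0. It holds 774 (4.44%) of the probes past the filter, and 54 of the 82 higher probes, all with a mean below 0. The list was made from the same arrays and is no independent reading of them. The 21 members outside it include the members with the 18th, 20th and 29th lowest means, whose sLh channel was above background on 2, 0 and 0 arrays.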

How the data were processed

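Gene expression was measured on 8 dual-channel Agilent arrays. The authors scanned them with Agilent Feature Extraction 10.7.3.1 and deposited the output, whose processed intensity of each dye had been corrected for background and dye by that software. The median spot and background intensity and the flags of the same deposited files were also used. The authors' list of 788 probes holds log2 values with no stated normalization and served for membership and sign only. The 8 sample columns of a further table name no female and were not used.

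Control spots and spots flagged as non-uniform or as population outliers, or with non-uniform local background (23 to 1619 per array), were left out. Ratios of processed signals (log2) were oriented as sLh over control from the labelled dyes. They were averaged over the 2 spots of a probe, the 2 arrays of a female and, for replicate 3, females 3 and 4. The log2 ratios of these females differed with a robust SD of 0.0843, against 0.577 to 0.837 for other pairs. The noise of that difference, computed from the spread between their dye-swapped arrays with dye effects included, was 0.40. A probe was above background on an array if either spot was. Filter and threshold were 4 arrays in the control channel and 1.8-fold. The members, lists and settings were chosen with earlier results of these data known. Planned gene and marker lists could not be applied without gene names. By the naming rule, probes were singled out as the 20 lowest means, the 5 nearest the threshold on each side, the 5 smallest SDs and the 5 highest control signals. Others described (the 21st to 39th lowest means that are none of these, and pairs) were chosen after their values were seen.

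limma 3.58.1 in R 4.3.3 (lmFit and eBayes against 0, Benjamini-Hochberg) gave the counts over all probes, and the script was tested on simulated data. normexp was fitted on the spots left after flagging. The folds against the lowest signal above background used loess and Aquantile levels. Other steps used Python 3.11.15. The number of arrays limits the precision.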

Additional observations from a re-analysis of the deposited data

Results flagged for a closer look

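Of 47 sets of 8 array values tested for a single distant array, 3 had one, and chance gives about 1 in 20. The array of female 1 that carried sLh in Cy3 was far below the others in the number of members above background in the sLh channel (35) and in the share of all spots above background there (44.4%). Its array with sLh in Cy5 was far below the others in the number of members above background in the control channel (74). The part of brightness in the members' ratios was not tested.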

How the results depend on the processing

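The number of members was 91. It was 45 under normexp and loess, 176 at 1.5-fold, 60 at 2-fold and 49 with the threshold set on both dye orientations of each replicate. With 1 replicate fewer to pass it was 213 to 450 (241 without replicate 1, 450 without replicate 2, 213 without replicate 3). Under the other settings it was 72 to 113, the extremes being the control channel above background on all 8 arrays and the array of female 1 with the dim sLh channel left out. That setting, 3 flag or background settings, females 3 and 4 alone and the sLh channel above background too were added after seeing the data. limma called 0 probes at an adjusted p of 0.05, 5 with females 3 and 4 as 2 replicates and 0 to 2 without 1 replicate (2 without replicate 1). Past 1.8-fold and an unadjusted p of 0.01 it found 202 probes, 97 under normexp and loess and 434 with 4 females. The methods' t-test, run here on 3 replicates and not on 4 females, found 33, which is not the authors' own selection. With the channels unpaired (no replicate block), limma called 0 and found 210. Of 240 alternative values of 40 named probes, 10 moved by over 1 SD, all among the 40 under normexp and loess, and 0 changed sign. The cause of these moves was not tested. Leaving out 1 replicate, or counting females 3 and 4 apart, could not move a mean by over 1 SD of the same 3 replicates. Neither could change a sign, since the 3 ratios of each named probe were all below 0. Centring the array medians shifted the named probes alike, by less than the smallest SD among them. The probe with that SD, 0.0976, went from -0.978 to -0.994. Those settings thus tell nothing here, and only normexp and loess could move a value. In 17 members at least 1 replicate had no array above background in the sLh channel, in 4 of them every replicate.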
